A study of Mus musculus with 32 samples.

Results

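The nuclear genome of the mouse encodes most subunits of the oxidative phosphorylation machinery, and the transcripts of these genes were followed here in 2 hematopoietic progenitor lines and 4 treatments. Members were all protein-coding autosomal genes whose GENCODE vM21 symbol begins with Nduf, Uqcr, Atp5, Cox4, Cox5, Cox6, Cox7 or Cox8. The rule found 87 genes among the 55487 gene identifiers of the tables. They comprised 34 subunits of complex I, 8 assembly factors of complex I (Ndufaf1 to Ndufaf8), 8 subunits of complex III, 19 genes of complex IV and 18 genes grouped with complex V, of which Atp5s (coupling factor B) is not a subunit of the enzyme. Ndufa4 and Ndufa4l2 were placed with complex IV, where the Ndufa4 protein acts despite its name. Atp5o stands in the annotation under 2 identifiers, and all values given for it belong to ENSMUSG00000022956.11. The 3 X-linked genes that carry matching symbols, Ndufa1, Ndufb11 and Cox7b, are outside the rule.

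Both lines were derived from fetal liver and immortalised by ER-HOXB8, in which the homeobox protein HOXB8 is joined to an estrogen receptor domain so that estradiol keeps it active, and were kept in estradiol and medium conditioned with stem cell factor. The wild-type line, hi-77+/+, carries the intact -77 enhancer of Gata2, and the mutant line, hi-77-/-, lacks it on both alleles. Each line received vehicle, interferon gamma (IFNg) at 1 ng/ml, Pam3CSK4 at 100 ng/ml (a synthetic lipopeptide that activates TLR2 with TLR1), or both agonists, for 4 h, with 4 libraries in each of the 8 groups. Each genotype is represented by a single named line, so genotype and line cannot be told apart, and whether libraries are separate cultures is not stated in the labels. P-values therefore measure only the spread between these libraries, which may be technical.

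Oxidative phosphorylation passes electrons from NADH and succinate through complexes I, II, III and IV to oxygen and uses the proton gradient formed on the way to drive ATP synthase, complex V. Its subunits come from the nuclear and the mitochondrial genome and have to be assembled together, with dedicated factors for each complex. Several subunits of complex IV exist as tissue isoforms, such as Cox7a1, the heart and muscle form, beside Cox7a2, the form found in most tissues.

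Each library held 44.18 to 71.42 M expected counts. Gata2 was at 31.9 to 55.4 CPM (counts scaled to 1 M per library) in wild-type vehicle libraries and at 6.34 to 8.11 CPM in mutant vehicle libraries. The marker sums that follow are on the same plain scale. The CPM of single members further below were instead taken on the TMM-scaled library sizes of edgeR, and so are relative to the other genes. Summed over 6 genes, progenitor markers reached 2345 to 3672 CPM across all libraries, while the 5 hepatocyte markers together stayed between 0 and 0.308 CPM. Marker lists of 5 genes each differed between the lines with vehicle: mast cell genes summed to 522 to 605 CPM (wild-type) and 108 to 114 CPM (mutant), erythroid genes to 81 to 88.2 and 1.66 to 2.31, neutrophil genes to 78.5 to 96.8 and 5.04 to 6.95, stromal genes to 28.3 to 40.3 and 11.7 to 13, macrophage genes to 20.7 to 24.9 and 11.6 to 12.5, and B lymphoid genes to 5.96 to 7.61 and 163 to 176. The part of these differences in the results on the members was not tested. The percentage of counts in structural and mitochondrial transcripts, called the structural RNA share here (ribosomal, transfer, small nuclear, small nucleolar and other small RNA genes and all mitochondrial transcripts), also differed: 19.4 to 28.8% in wild-type vehicle libraries, 12.8 to 17.7% in the 12 treated wild-type libraries, and 15.4 to 30.2% in the 16 mutant libraries. In such bulk libraries fewer cells of a type and less RNA per cell cannot be told apart. Because of these differences the counts over all members below, and those of the lists, were also taken from a fit with that share as a covariate. In some comparisons the share did not overlap between the groups, as with Pam3CSK4 (13.6 to 16.9% in wild-type, 25.2 to 30.2% in mutant libraries). Where a call was lost with the covariate, lost precision and an effect removed together with the share cannot be told apart.

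Together the 87 members took 1.083 to 1.195% of the expected counts of a library. Of these, 80 had enough counts to be tested. The other 7 were Cox4i2 with 14 expected counts over all 32 libraries, Cox6b2 with 18, Ndufa4l2 with 5, the second Atp5o identifier with 6, and Cox7b2, Cox8b and Cox8c with 0. A count of 0 allows up to 3 counts. On a scale that allows comparison between genes, CPM per kb of effective length, the most abundant members in wild-type vehicle libraries were Cox7c, a small subunit of complex IV, at 998 ± 130 (SD, n = 4) and Atp5b, the catalytic beta subunit of ATP synthase, at 973 ± 34.6 (SD, n = 4). These neighbours in the order overlapped within their spread. Among members with at least 1 CPM per kb, the median level in wild-type vehicle libraries was 504 for complex IV, 465 for complex V, 324 for complex III, 125.5 for complex I and 13.6 for the assembly factors of complex I. In mutant vehicle libraries the medians were 553, 509, 315, 129.5 and 14.2 in the same order. The 8 assembly factors ranged from 9.6 (Ndufaf6) to 40.4 (Ndufaf2) in wild-type vehicle libraries, and the 34 complex I subunits from 34.6 (Ndufab1) to 400.

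**Figure D1:**
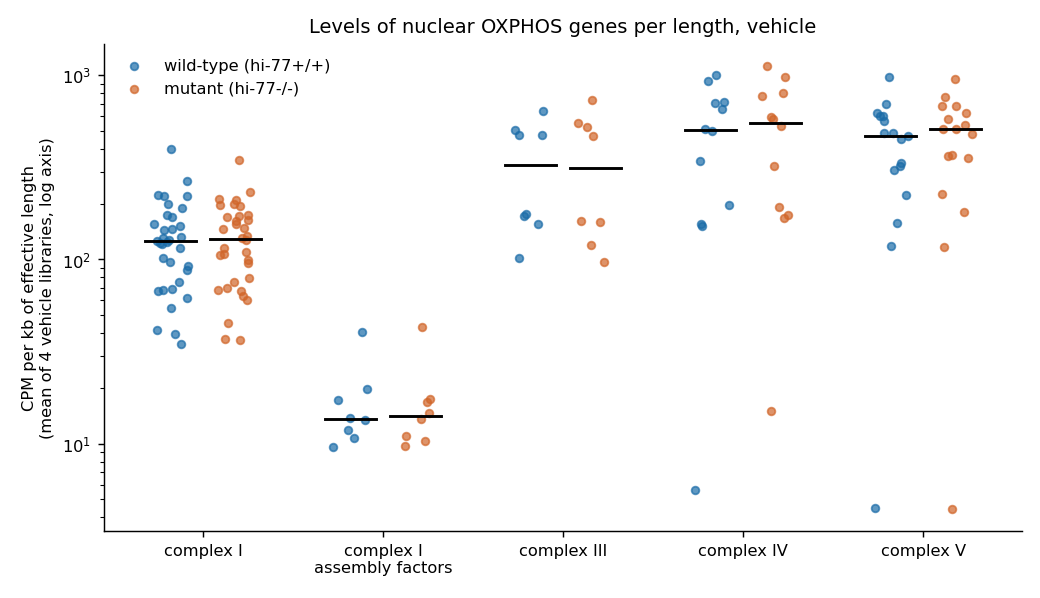
Level per length of each member with a mean of at least 1 in vehicle libraries, as CPM per kb of effective length on a log axis (vertical), by complex (horizontal) and line (colour). Each point is the mean of 4 libraries of 1 gene and black bars are medians, which lie near 500 for complexes IV and V and near 14 for the assembly factors of complex I.

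Where a subunit has several genes, 1 isoform of complex IV held nearly all of the level, while the c-ring genes of ATP synthase shared it. Cox7a1 made up 1.1% ± 0.117 (SD, n = 4) of the summed per-length level of Cox7a1 and Cox7a2 in wild-type vehicle libraries and 2.5% ± 0.431 (SD, n = 4) in mutant vehicle libraries. The lowest mutant share, 2.06%, was above the highest wild-type share, 1.21%. Cox6a2, another muscle isoform, was at 0.179% ± 0.0314 (SD, n = 4) of Cox6a1 and Cox6a2 in wild-type and 0.146% ± 0.0377 (SD, n = 4) in mutant vehicle libraries. For the c-ring subunit of ATP synthase, which 3 genes encode as the same mature protein, the level was divided, with Atp5g3 lower than the other two: in wild-type vehicle libraries Atp5g1 held 37.9% ± 0.806, Atp5g2 36.2% ± 0.819 and Atp5g3 25.9% ± 0.368 (SD, n = 4). In mutant vehicle libraries the shares were 37.9% ± 1.08, 35.7% ± 0.395 and 26.4% ± 1.05 (SD, n = 4). AA467197, a paralogue of Ndufa4 outside the rule, did not exceed 0.104 CPM in any library.

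Comparing mutant with wild-type cells, the members were higher in the mutant more often than lower, and by little. With vehicle, 18 of 80 were higher and 11 lower in edgeR's quasi-likelihood test at an adjusted p under 0.05, where 24.4% of all 14869 genes tested were higher and 29.3% lower. With IFNg the counts were 41 and 4 (all genes 25.7 and 27.4%), with Pam3CSK4 57 and 4 (32.1 and 33.5%), and with both agonists 47 and 6 (30.5 and 29.7%). The median log2 fold change over the members was 0.07, 0.15, 0.31 and 0.18 in that order, beside medians over all genes of -0.01, 0, -0.01 and 0.01. The share of members that were higher thus lay above the background in the 3 agonist groups and, at 22.5%, not with vehicle, while the share that was lower lay under it in all 4. The vehicle counts moved with 2 libraries: without wild-type vehicle libraries 1 and 4, 38 members were higher and 8 lower (24.3 and 28% of the 15303 genes tested in that refit).

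These directions, and the CPM of single members, are relative to the other genes, as TMM scaling sets them. The deposited TPM scales each library over all its transcripts, structural RNA included. On it, the log2 ratio of group means (pseudocount 0.1) had a median over all genes of -0.052, -0.291, -0.736 and -0.525 for mutant against wild-type in the 4 treatments, in the order of vehicle, IFNg, Pam3CSK4 and both agonists, and over the members of 0.005, -0.191, -0.558 and -0.45. As deposited, TPM gave the called members the same sign for 28 of 29, 10 of 45, 10 of 61 and 11 of 53, and relative to the median of all genes for 28, 45, 56 and 51. For the 3 treatments in wild-type cells the medians over all genes were 0.488, 0.588 and 0.584, the sign was the same for 2 of 49, 0 of 38 and 3 of 48 as deposited, and for 49, 38 and 42 relative to the median. Over all 13 comparisons it was the same for 82 of 408 calls as deposited and for 394 relative to the median. Every direction below is thus one relative to all genes. TPM as deposited turns most of those between the lines with an agonist and most of those in wild-type cells. It also turns most response differences, with the same sign for 1 of 40 with Pam3CSK4 and 2 of 10 with both agonists. For IFNg in mutant cells the sign was the same for 2 of 18.

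By complex the counts with Pam3CSK4 were as follows, where 32.1% of all genes were higher and 33.5% lower. There 24 of 34 complex I subunits were higher and 2 lower (median 0.24), as were 6 and 1 of 8 assembly factors (0.33), 6 and 0 of 8 complex III subunits (0.34), 8 and 1 of 13 complex IV genes (0.34) and 13 and 0 of 17 complex V genes (0.35). With vehicle the same counts were 8 and 5, 0 and 2, 1 and 2, 5 and 2, and 4 and 0 (all genes 24.4 and 29.3%). With the structural covariate the counts in the same order were 6 and 6, 1 and 0, 1 and 1, 7 and 2, and 3 and 0 with Pam3CSK4 (all genes 21 and 22.5%). With vehicle they were 8 and 6, 0 and 2, 2 and 4, 5 and 3, and 3 and 0 in that fit (25.2 and 30.2%). No complex V gene was lower in the mutant in any of the 4 treatments in the fit without the covariate, and with it 1 was, with IFNg.

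The structural RNA share moved with these counts. With the share as a covariate of the edgeR fit, 18 members were higher and 15 lower with vehicle (all genes 25.2 and 30.2%), 11 and 10 with IFNg (22.4 and 24.7%), 18 and 9 with Pam3CSK4 (21 and 22.5%) and 6 and 12 with both agonists (21.7 and 22.4%). Across libraries, the median over the members of the log2 ratio to each gene's own mean ran from -0.158 to -0.082 in wild-type libraries with both agonists, whose structural share was 12.8 to 14.2%. It ran from 0.111 to 0.183 in mutant libraries with Pam3CSK4, whose share was 25.2 to 30.2%. In wild-type vehicle libraries it ran from -0.118 to 0.113, at shares of 19.4 to 28.8%. Libraries of similar share could differ: wild-type vehicle library 3 had -0.118 at 21.8%, and mutant IFNg library 3 had 0.042 at 22%. Values also differed by transcript length: the 80 members had a median transcript length of 724 bases against 2558 for all genes tested, and with Pam3CSK4 the shorter 40 members had a median log2 fold change of 0.35 between genotypes and the longer 40 one of 0.16. Genes of the cytosolic ribosome, with a median length of 756 bases, had 68 of 83 higher in the mutant with Pam3CSK4 and a median of 0.35, and with the covariate 7 were higher and 6 lower.

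**Figure D2:**
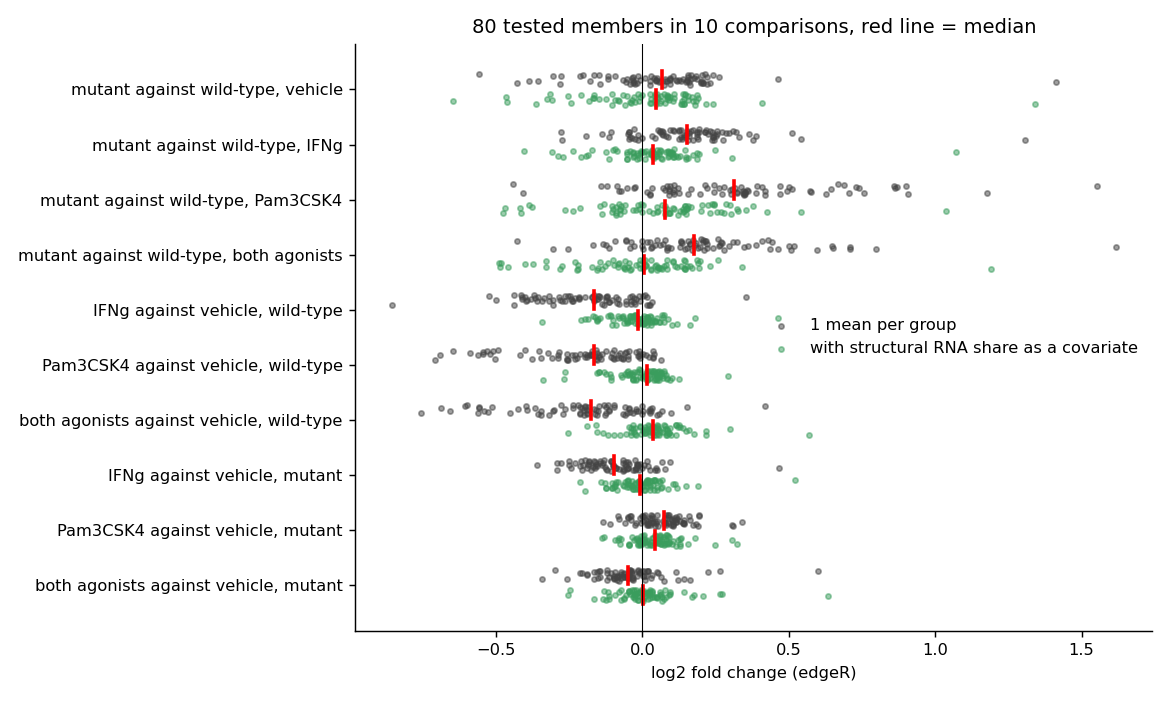
Log2 fold change (horizontal) of the 80 tested members in 10 comparisons (vertical), from the edgeR fit with 1 mean per group (grey) and with structural RNA as a covariate (green). Each point is a gene and red bars are medians, which move from 0.31 to 0.08 for mutant against wild-type with Pam3CSK4 and from -0.17 to -0.02 for IFNg in wild-type cells; the point far to the right in the genotype comparisons is Cox7a1.

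**Figure D3:**
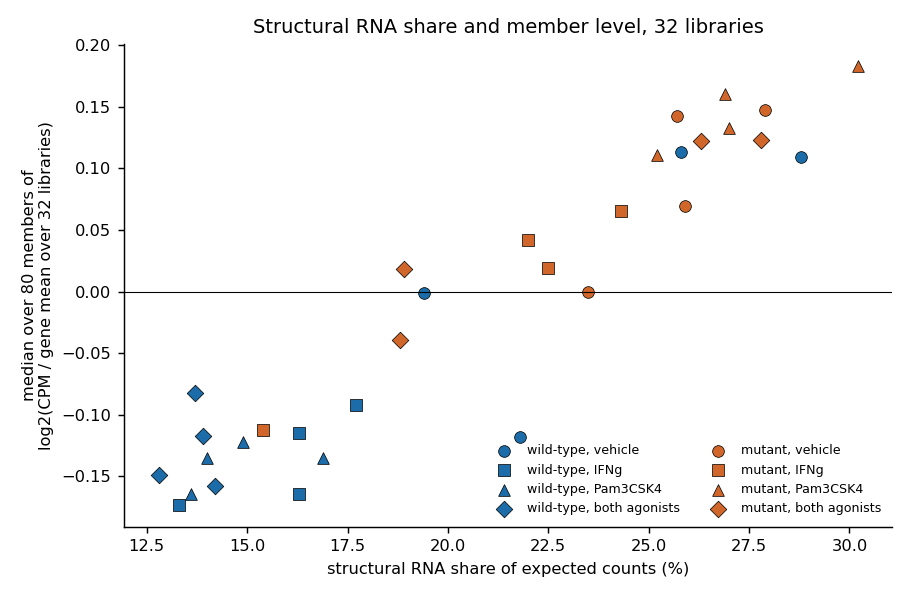
Median over the 80 members of log2(TMM-scaled CPM / the gene's mean over 32 libraries) (vertical) against the structural RNA share of the library in percent (horizontal). Each point is a library, with colour for the line and shape for the treatment; the treated wild-type libraries lie at the lower left, with shares of 12.8 to 17.7%, and the mutant Pam3CSK4 libraries at the upper right.

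A few members were called in both fits. In the fit with 1 mean per group, 15 members were higher in the mutant in all 4 treatments and 2 were lower, where 16.1 and 19.5% of all genes were. With the structural covariate the balance was the other way, with 4 higher and 7 lower in all 4 treatments (all genes 13.7 and 16.1%). In both fits 4 were higher in all 4 treatments, Cox7a1, Ndufa4, Atp5c1 and Atp5o, and 2 were lower, Cox8a and Ndufv1, a smaller share than the 12.4 and 15.1% of all genes.

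Cox7a1 differed most. Its level in wild-type cells was 1.08, 0.961, 0.769 and 0.858 CPM with vehicle and in mutant cells 2.11, 2.44, 2.55 and 2.68 CPM. The 4 mutant libraries were above the 4 wild-type libraries in each treatment. The mutant was 2.66-fold higher with vehicle (log2 fold change 1.41 ± 0.17 SE, edgeR adjusted p 7.1e-09), 2.48-fold with IFNg, 2.94-fold with Pam3CSK4 and 3.07-fold with both agonists. With the structural covariate the log2 fold changes were 1.34, 1.07, 1.03 and 1.19, and all passed. The gene lies on chromosome 7, 30184144 to 30186078 (mm10). Cox7a2, its ubiquitous paralogue on chromosome 9, 79755361 to 79759878, was not called with vehicle (log2 fold change 0.22 ± 0.12 SE). With Pam3CSK4 it was at 258 to 295 CPM in mutant and 135 to 156 CPM in wild-type libraries. With both agonists it was at 194 to 256 and 146 to 154 CPM, and with IFNg the lines overlapped. In the fit with the covariate it passed with Pam3CSK4 alone (0.30, edgeR adjusted p 0.039). On TPM as deposited the lines overlapped with Pam3CSK4, at 169 to 195 and 164 to 186.

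Ndufa4, a subunit of complex IV, stood at 286, 254, 206 and 290 CPM in wild-type vehicle libraries and at 367, 380, 362 and 318 CPM in mutant vehicle libraries. On the CPM scale the groups did not overlap in any of the 4 treatments. On TPM as deposited they overlapped with Pam3CSK4, at 250 to 301 in mutant and 244 to 289 in wild-type libraries. They also overlapped with both agonists, at 236 to 339 and 253 to 283. The log2 fold changes were 0.46 ± 0.09 with vehicle (edgeR adjusted p 9.7e-05), 0.51 with IFNg, 0.87 with Pam3CSK4 and 0.71 with both agonists, and 0.41, 0.31, 0.42 and 0.34 with the covariate. Atp5c1, the gamma subunit that forms the central stalk of ATP synthase, was at 310, 284, 257 and 297 CPM in wild-type and 354, 344, 336 and 323 CPM in mutant vehicle libraries. Its log2 fold changes were 0.24 ± 0.05 (edgeR adjusted p 3.9e-05), 0.28, 0.47 and 0.36 over the 4 treatments, in the order of vehicle, IFNg, Pam3CSK4 and both agonists. Atp5o, the subunit that links the stalks of the enzyme and confers oligomycin sensitivity, was at 205, 190, 174 and 207 CPM in wild-type and 226, 225, 228 and 216 CPM in mutant vehicle libraries. It differed by 0.21 ± 0.04 (edgeR adjusted p 5.7e-05), 0.25, 0.28 and 0.28 on the log2 scale in the same order. For both genes the lowest mutant library was above the highest wild-type library in each treatment on the CPM scale. On TPM as deposited the means of both were lower in the mutant in the 3 agonist groups, at -0.062, -0.379 and -0.263 for Atp5c1 and -0.092, -0.572 and -0.341 for Atp5o on the log2 scale. On that scale the lines overlapped for both genes with vehicle, IFNg and both agonists. With Pam3CSK4 they were apart, at 95.4 to 117 in mutant and 125 to 149 in wild-type libraries for Atp5c1. For Atp5o these ranges were 90.8 to 116 and 135 to 169.

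Ndufv1, the complex I subunit that binds NADH and flavin mononucleotide, went the other way. It was at 170, 168, 166 and 175 CPM in wild-type and 132, 136, 137 and 127 CPM in mutant vehicle libraries. Mutant cells were lower by 1.28-fold with vehicle (log2 fold change -0.36 ± 0.04 SE, edgeR adjusted p 5.1e-10), and the log2 fold change was -0.28 with IFNg, -0.41 with Pam3CSK4 and -0.43 with both agonists. Cox8a, a small subunit of complex IV, was at 195, 187, 222 and 230 CPM in wild-type and 163, 176, 179 and 158 CPM in mutant vehicle libraries. Its log2 fold changes were -0.30 ± 0.05 (edgeR adjusted p 6.3e-06), -0.27, -0.44 and -0.30 in the same order. For both genes the 2 lines did not overlap in any treatment on the CPM scale. On TPM as deposited Cox8a overlapped with vehicle (152 to 172 in mutant, 169 to 246 in wild-type libraries) and with IFNg (162 to 259, 251 to 351).

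**Figure D4:**
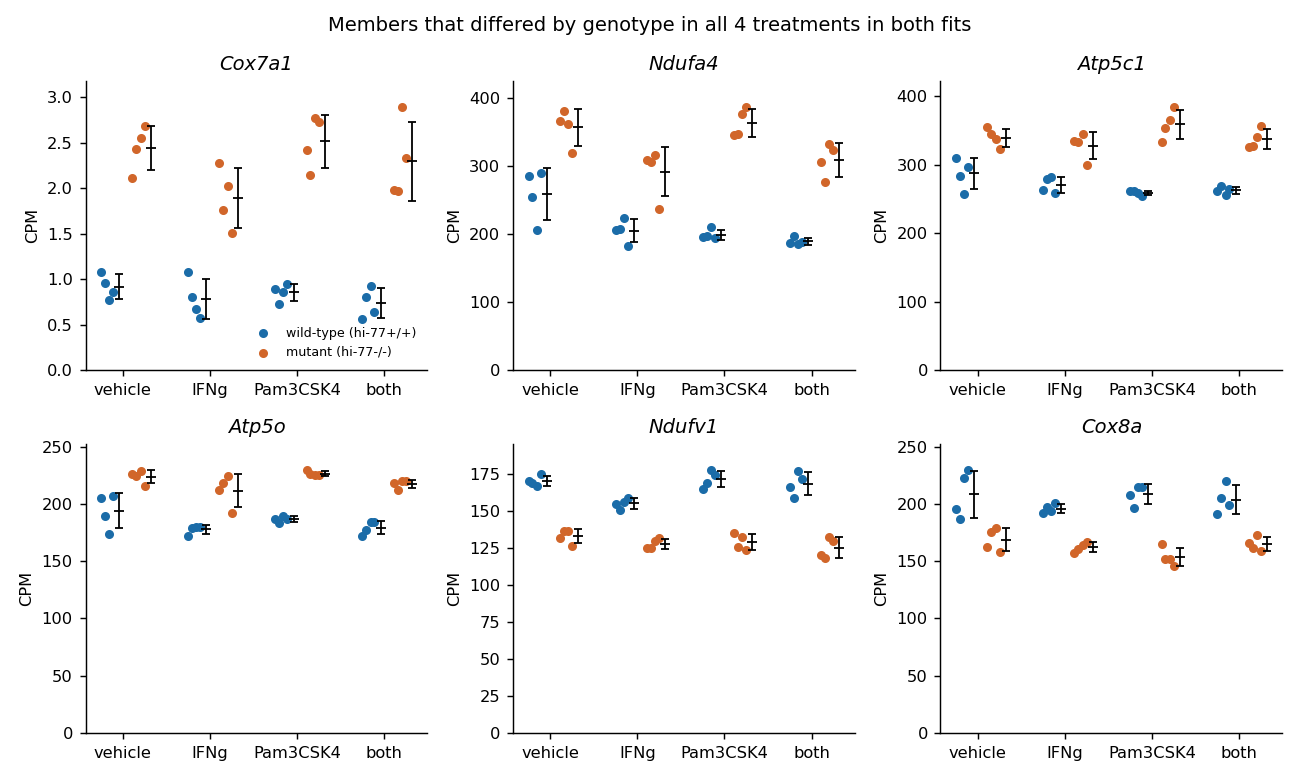
TMM-scaled CPM (vertical, from 0) of the 6 members that differed between the lines in all 4 treatments in both fits, by treatment (horizontal) and line (colour). Points are libraries and black bars are the mean ± SD of 4. Mutant libraries lie above wild-type libraries for Cox7a1, Ndufa4, Atp5c1 and Atp5o and under them for Ndufv1 and Cox8a. On TPM as deposited the means of Atp5c1 and Atp5o were lower in the mutant in the agonist groups, and the lines overlapped in every treatment but Pam3CSK4. On that scale the lines also overlapped for Ndufa4 with Pam3CSK4 and with both agonists, and for Cox8a with vehicle and with IFNg.

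Promoters of RefSeq (GRCm38.p6, 250 bases before to 50 after the start) were found for 70 of the 86 member symbols and were searched on both strands for motifs of 3 factors known for respiratory genes and of interferon and GATA factors, with the share among 16906 protein-coding genes beside it. The NRF1 motif was in 16 of 70 (22.9% against 6.88%), the ETS motif CCGGAAG in 15 (21.4 against 12.2%) and the YY1 motif AANATGGC in 15 (21.4 against 6.74%). The interferon-related GAS motif TTCNNNGAA was in 5 (7.14 against 7.83%) and the GATA motif AGATAA in 6 (8.57 against 9.81%). Of the 6 genes above, Ndufa4, Atp5c1 and Ndufv1 held none of the 5 motifs in this window. The 5 sequences are printed 5′ to 3′ with motif matches in capitals, since they show both paralogues of Cox7a and members with different motifs. Cox7a1 (chr7:30183921-30184220, plus strand) has the GATA motif 2 times, once on each strand, and Cox7a2 (chr9:79759804-79760103, minus strand) has none of the motifs. Atp5o (chr16:91931581-91931880, minus strand) has 1 GAS and 1 NRF1 match, Cox8a (chr19:7217567-7217866, minus strand) has 2 ETS matches, and Ndufaf4 (chr4:24897833-24898132, plus strand) has an NRF1 match that reads on both strands. A match is a description of these letters, and binding was not measured.
Cox7a1: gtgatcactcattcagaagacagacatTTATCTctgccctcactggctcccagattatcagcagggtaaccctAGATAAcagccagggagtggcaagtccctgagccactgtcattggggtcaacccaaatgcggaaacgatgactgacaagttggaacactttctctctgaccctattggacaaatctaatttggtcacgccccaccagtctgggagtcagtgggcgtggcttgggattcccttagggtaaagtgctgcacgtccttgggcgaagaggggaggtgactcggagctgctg
Cox7a2: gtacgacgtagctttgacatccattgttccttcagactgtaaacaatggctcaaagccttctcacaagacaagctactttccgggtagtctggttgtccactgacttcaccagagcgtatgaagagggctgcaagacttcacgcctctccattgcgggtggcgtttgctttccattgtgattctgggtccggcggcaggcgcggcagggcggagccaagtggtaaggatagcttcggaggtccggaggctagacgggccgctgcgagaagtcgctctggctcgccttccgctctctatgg
Atp5o: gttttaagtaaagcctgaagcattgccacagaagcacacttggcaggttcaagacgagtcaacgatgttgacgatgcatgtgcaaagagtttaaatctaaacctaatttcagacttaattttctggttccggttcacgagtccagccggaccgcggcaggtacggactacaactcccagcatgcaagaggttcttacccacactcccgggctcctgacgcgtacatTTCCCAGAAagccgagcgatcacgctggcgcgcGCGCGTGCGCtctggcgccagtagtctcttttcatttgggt
Cox8a: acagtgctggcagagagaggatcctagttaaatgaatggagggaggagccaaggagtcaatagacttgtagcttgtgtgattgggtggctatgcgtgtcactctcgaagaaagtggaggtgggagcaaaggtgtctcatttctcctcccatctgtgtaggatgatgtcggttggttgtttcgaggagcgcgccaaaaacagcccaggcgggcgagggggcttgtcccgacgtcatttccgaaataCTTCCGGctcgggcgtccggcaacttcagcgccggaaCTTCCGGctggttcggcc
Ndufaf4: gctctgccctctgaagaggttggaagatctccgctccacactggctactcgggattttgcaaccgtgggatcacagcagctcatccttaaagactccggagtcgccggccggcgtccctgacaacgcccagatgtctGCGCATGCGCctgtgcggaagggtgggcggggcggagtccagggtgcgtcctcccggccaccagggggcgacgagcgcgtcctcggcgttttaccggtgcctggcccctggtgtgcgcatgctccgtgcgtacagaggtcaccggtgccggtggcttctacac

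Core subunits differed from each other in how close they were between the lines. Ndufv1, given above, was lower in the mutant in all 4 treatments in both fits, while Atp5b and Atp5a1 were not called. Atp5b, the beta subunit of ATP synthase, was at 1663, 1695, 1559 and 1639 CPM in wild-type and 1610, 1610, 1641 and 1570 CPM in mutant vehicle libraries, with no call in any of the 13 comparisons and log2 fold changes between -0.053 and 0.029. Atp5a1, the alpha subunit, likewise passed in none, with values between -0.035 and 0.06. Ndufs1, the large iron-sulfur subunit of complex I, passed in 1, mutant against wild-type with Pam3CSK4 (0.11 ± 0.04, edgeR adjusted p 0.018), and with the covariate it was 0.09 with adjusted p 0.25. Cox5a was higher with vehicle (0.15), IFNg (0.17) and Pam3CSK4 (0.22) in both fits and was at 0.10 with both agonists (adjusted p 0.054). Cox4i1, a regulatory subunit of complex IV, was lower with vehicle (-0.28) and IFNg (-0.14). With the covariate it was lower in all 4 treatments, at -0.32, -0.27, -0.38 and -0.38 on the log2 scale. Among complex III genes, Uqcrc1 was lower with vehicle (-0.15 ± 0.04, adjusted p 0.0011), and with the covariate it was -0.17 (9.3e-05). Uqcrfs1, the Rieske iron-sulfur protein, passed with Pam3CSK4 and in no other treatment (0.11 ± 0.04, adjusted p 0.02), and with the covariate this value was -0.02 (0.81).

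With IFNg against vehicle most called members were lower in both lines, and 1 was higher. All comparisons with vehicle within a line share the vehicle libraries of that line. In wild-type cells 48 of 80 were lower and 1 higher (all genes 17.6 and 17.8%), with a median log2 fold change of -0.17. In mutant cells 17 were lower and 1 higher (14.9 and 18.3%), with a median of -0.10. This mutant count of 18 in either direction became 8 without mutant IFNg library 4, whose structural share was 15.4% against up to 24.3% in its group, and 9 and 11 without mutant vehicle library 2 and 3. With the structural covariate 2 were lower and 2 higher in wild-type cells (7.5 and 10.9%) and 3 lower and 2 higher in mutant cells (13.6 and 17.1%). Without wild-type vehicle libraries 1 and 4, whose structural shares were 25.8 and 28.8% against 19.4 and 21.8% for the other two, 14 were lower and 1 higher in wild-type cells (12.3 and 13.9% of all genes in that refit). The difference between the responses passed for 0 of the 80 members in edgeR, where 0.827% of all genes were higher and 0.82% lower, for 12 at an unadjusted p under 0.05 and for 1 in DESeq2. Without wild-type vehicle library 2 it passed for 3, without wild-type vehicle libraries 1 and 4 for 0 (0.765 and 0.477% of all genes), and with the covariate for 0 (0.847 and 0.787% of all genes).

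Ndufaf4, an assembly factor of complex I, was the member that rose with IFNg in the fit with 1 mean per group. Wild-type cells had 66.3, 57.7, 50.2 and 59.2 CPM with vehicle and 74.5, 75.2, 77.2 and 71.4 CPM with IFNg. Mutant cells had 60.7, 57.6, 56.3 and 55.8 CPM with vehicle and 80.9, 79.8, 83.3 and 74.1 CPM with IFNg. In both lines the IFNg libraries were all above the vehicle libraries. The log2 fold changes were 0.35 ± 0.06 (edgeR adjusted p 1.3e-05) and 0.47 ± 0.06 (8.4e-08), and with the covariate 0.46 and 0.52. In the fit with the covariate Ndufaf5 rose as well in wild-type cells (0.18, edgeR adjusted p 0.034) and Ndufa12 in mutant cells (0.11, 0.034). With both agonists Ndufaf4 rose by 0.42 in wild-type and 0.60 in mutant cells.

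Cox7a2l, which helps complexes III and IV join in supercomplexes, fell relative to all genes with IFNg in both lines and in both fits, while TPM as deposited gave 0.287 in wild-type and 0.004 in mutant cells on the log2 scale. It was at 138, 129, 119 and 139 CPM with vehicle and 103, 112, 108 and 102 CPM with IFNg in wild-type cells, and at 140, 156, 157 and 139 against 123, 124, 127 and 110 CPM in mutant cells. On the CPM scale the groups were apart in both lines, and on TPM as deposited they overlapped. The log2 fold changes were -0.30 ± 0.05 (edgeR adjusted p 2.2e-05) and -0.29 ± 0.05 (3e-05), and -0.15 and -0.21 with the covariate. With both agonists they were -0.40 and -0.30. The members called in the same direction by IFNg in both lines were Ndufaf4 (13.4% of all genes were higher in both) and 15 that were lower (8.55%), among them the complex IV genes Ndufa4, Cox6b1 and Cox6c and the ATP synthase genes Atp5g2, Atp5h and Atp5j. In both fits this left Ndufaf4 and Cox7a2l (8.88 and 4.51% of all genes). These comparisons share no library between the lines. Pam3CSK4 gave no member called the same way in both lines (2.99% of all genes were higher in both and 1.11% lower, and 0.868 and 0.0135% in both fits). Both agonists gave Ndufaf4 (15.9%) and 8 that were lower (11%), of which both fits left Ndufaf4 and Cox7a2l (10.3 and 6.01%).

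With Pam3CSK4 against vehicle the called members were all lower in wild-type cells and all higher in mutant cells. In wild-type cells 38 were lower and 0 higher (all genes 11.7 and 10.4%), with a median of -0.17, and without wild-type vehicle library 1 there were 22. In mutant cells 4 were higher and 0 lower (11.5 and 12.8%), with a median of 0.07. With the covariate 0 passed in either direction in wild-type cells, where only 0.0807% of all genes were still lower and 0.915% higher, and 5 were higher and 0 lower in mutant cells (13.1 and 13.5%). Without wild-type vehicle libraries 1 and 4, 3 members were lower and 0 higher in wild-type cells (1.57 and 2.67%). In mutant cells the 4 that rose were Ndufaf1, Ndufaf3 and Ndufaf4, which assist the assembly of complex I, and Ndufa12, an accessory subunit of it. In the fit with the covariate the same genes rose, together with Ndufb4.

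Ndufaf3 was at 12.2, 11.7, 12.5 and 12.7 CPM in mutant vehicle libraries and at 15.5, 14.5, 15.9 and 14.8 CPM in mutant Pam3CSK4 libraries. On the CPM scale the groups did not overlap, and the log2 fold change was 0.31 ± 0.05 (edgeR adjusted p 1e-05). On TPM as deposited Ndufaf3 overlapped, at 2.58 to 3.47 with vehicle and 3.1 to 3.58 with Pam3CSK4. In wild-type cells it was at 12.9, 14, 13.6 and 13.8 CPM with vehicle and 14.1, 13.4, 13.5 and 14.9 CPM with Pam3CSK4, a difference of 0.04 that did not pass. Ndufaf4 in mutant cells reached 66.4, 76, 69.6 and 79.8 CPM with Pam3CSK4, a rise of 0.34 ± 0.06 (edgeR adjusted p 3.2e-05). On TPM as deposited Ndufaf4 overlapped, at 4.7 to 5.64 with vehicle and 4.99 to 6.88 with Pam3CSK4. In wild-type cells it was at 55.7, 56.6, 54.7 and 52.8 CPM, a difference of -0.09 that did not pass. Ndufaf1 rose by 0.18 in mutant cells.

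With both agonists 46 members were lower and 2 higher in wild-type cells (all genes 22.4 and 21.2%), and 8 lower and 5 higher in mutant cells (20.1 and 23.7%). With the covariate 1 was lower and 3 higher in wild-type cells (9.64 and 12.4%) and 5 lower and 9 higher in mutant cells (21.3 and 24.9%). Without wild-type vehicle libraries 1 and 4, 14 were lower and 4 higher in wild-type cells (16.7 and 17.9%). The 2 that rose in wild-type cells were Ndufaf4 and Ndufaf7, of which Ndufaf7 did not pass with the covariate (0.14, edgeR adjusted p 0.14), where Ndufaf4, Ndufaf5 and Ndufab1 were higher. In mutant cells the 5 were Ndufaf1, Ndufaf3, Ndufaf4, Ndufaf6 and Ndufa12. Thus 4 of the 5 that rose in mutant cells were assembly factors, and none of the 8 fallen members was. With the covariate 6 of the 9 were assembly factors, and none of the 5 fallen members was.

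**Figure D5:**
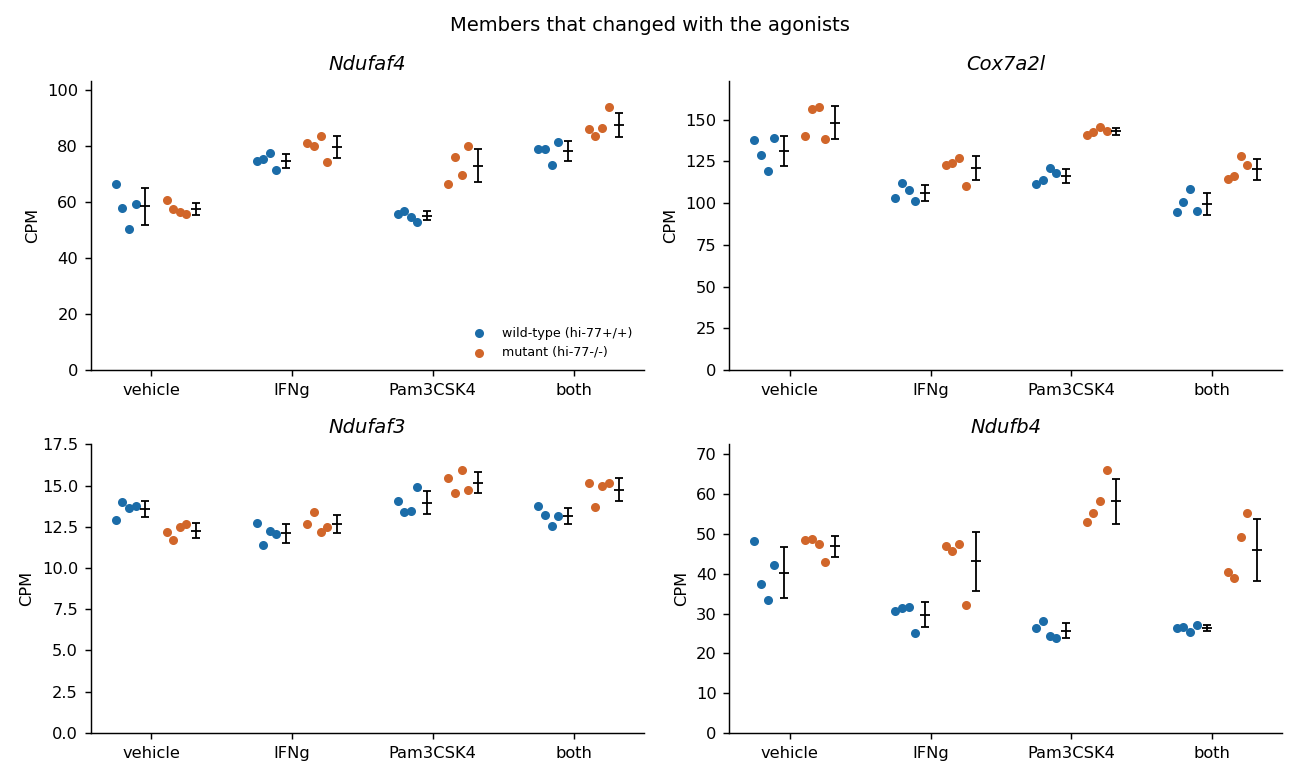
TMM-scaled CPM (vertical, from 0) of Ndufaf4, Cox7a2l, Ndufaf3 and Ndufb4 by treatment (horizontal) and line (colour). Points are libraries and black bars are the mean ± SD of 4; Ndufaf4 lies higher with IFNg in both lines, and with Pam3CSK4 in the mutant line, where its libraries run from 66.4 to 79.8 CPM.

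The response to Pam3CSK4 differed between the lines for 40 of 80 members, all with a higher log2 fold change in the mutant, and for 0 in the other direction (all genes 14.3 and 12.3%). The median difference was 0.22, and TPM as deposited gave the same sign for 1 of the 40. By complex the 40 were 17 of 34 complex I subunits, 6 of 8 assembly factors, 6 of 8 complex III subunits, 4 of 13 complex IV genes and 7 of 17 complex V genes. With the structural covariate 1 passed, in complex I (3.95 and 3.05% of all genes), and without wild-type vehicle libraries 1 and 4, 17 were higher and 1 lower (8.33 and 7.65%). For both agonists 9 were higher and 1 lower (8.8 and 6.99%). The covariate left 1 (4.87 and 2.95%), and leaving out those libraries left 1 higher and 1 lower (5.77 and 4.82%). Single libraries moved this total of 10 as well: it was 2 without mutant both-agonist library 3 or 4, 3 without mutant vehicle library 4 or wild-type vehicle library 4, 4 without wild-type vehicle library 1, 6 without wild-type both-agonist library 4, 19 without mutant both-agonist library 2 and 23 without wild-type vehicle library 3.

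Ndufb4, an accessory subunit of complex I, had the greatest difference in the Pam3CSK4 response. In wild-type cells it was at 48.1, 37.5, 33.4 and 42.1 CPM with vehicle and 26.3, 28.2, 24.3 and 24 CPM with Pam3CSK4. In mutant cells it was at 48.6, 48.7, 47.4 and 43 CPM with vehicle and 53.1, 55.2, 58.3 and 66.1 CPM with Pam3CSK4. On the CPM scale the 2 groups were apart within each line, in opposite directions, and on TPM as deposited they overlapped. The log2 fold change was -0.65 ± 0.12 in wild-type cells (edgeR adjusted p 0.00081) and 0.31 ± 0.12 in mutant cells (0.063), and the difference was 0.96 ± 0.17 (0.00024). With the covariate the difference was 0.40 (adjusted p 0.047), and it was the 1 member that passed. On TPM as deposited the wild-type value was 0.048, and relative to the median of all genes -0.54. Reads of Ndufb4 may be divided with Ndufb4c, annotated as a processed pseudogene: 71205 expected counts went to Ndufb4 and 57187 to Ndufb4c, and Ndufb4 held 52.2 to 57.9% of the pair in every library. Its level is therefore uncertain.

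For both agonists the member that passed with the covariate was Ndufaf3, with a difference of 0.31 ± 0.07 (edgeR adjusted p 0.0022) in the main comparison and 0.30 (0.018) with the covariate. Its Pam3CSK4 difference of 0.27 ± 0.07 (0.0044) was 0.25 with the covariate (0.079). The Pam3CSK4 difference of Ndufaf4 was 0.42 ± 0.08 (edgeR adjusted p 0.00031), and 0.28 with the covariate (0.073). Uqcrq, a small subunit of complex III, differed by 0.88 ± 0.24 (edgeR adjusted p 0.0074) for Pam3CSK4. Its wild-type vehicle libraries were scattered, at 56.7, 42.8, 67.1 and 78.8 CPM, while the wild-type Pam3CSK4 libraries were at 38.3, 40.4, 36.2 and 36.9 CPM. With the covariate the difference was 0.23 (0.64), and on TPM as deposited it was -0.13.

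Other genes of the pathway were taken from lists written by hand, and their counts are to be read against 24.4% of all genes higher and 29.3% lower in the mutant with vehicle. Of the 13 mitochondrially encoded subunits, which also count toward the structural share, 6 were higher and 0 lower in the mutant with vehicle and 11 and 0 with Pam3CSK4 (all genes 32.1 and 33.5%), and with the covariate 6 and 0 in both. With IFNg in wild-type cells 0 were higher and 5 lower (17.8 and 17.6%), and with the covariate 0 and 0. Of the 4 genes of complex II, Sdhb (0.28) and Sdha (0.09) were higher in the mutant with vehicle, and 2 were higher with the covariate. Of 17 genes of the tricarboxylic acid cycle 8 were higher and 0 lower in both fits, with Idh2 highest at 0.35. Assembly factors of complex IV and biogenesis factors lay nearer the background. Of 19 tested assembly factors of complex IV 3 were higher and 7 lower (3 and 8 with the covariate), with Coa6 at -0.46 and Coa4 at 0.40. The assembly factor of ATP synthase Atpaf1 was lower, from 21.1 to 23.2 CPM in wild-type to 12.7 to 14.5 CPM in mutant vehicle libraries (log2 fold change -0.76). Of 15 biogenesis factors 3 were higher and 4 lower (2 and 6). One was Ppargc1a, the coactivator PGC-1 alpha, at 8.89 to 9.88 CPM in mutant vehicle libraries and at 0 in the 4 wild-type vehicle libraries. Among 7 other complex I assembly factors 2 were higher, with Nubpl at 0.54, and 2 lower (2 and 2), and among 6 for complex III 2 were higher and 1 lower (1 and 1).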

How the data were processed

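RNA of 32 libraries was measured with the TruSeq Stranded Total RNA kit after ribosomal RNA reduction, per the labels' protocols. The authors deposited RSEM gene tables, and the submitters' processing notes name STAR 2.5.2b, RSEM 1.3.0 and mm10. The deposited expected count of each gene, which need not be whole, was rounded before testing. The deposited TPM (transcript abundance scaled for length and library) served as an alternative for levels and, added after seeing the data, for directions, and the deposited effective length gave CPM per kb. The deposited FPKM was not used.

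Counts were tested with edgeR 4.0.16 (R 4.3.3, limma 3.58.1): filterByExpr, TMM scaling, robust quasi-likelihood fit with 1 mean for each of 8 groups, 24 residual degrees of freedom, and Benjamini-Hochberg adjustment over 14869 genes at 0.05, with 40618 gene identifiers removed. Totals of 44.18 to 71.42 M counts and a biological coefficient of variation of 7.22% set the precision. A fit with the log2 structural RNA share as a covariate is given beside it. Alternatives were DESeq2 1.42.0, its size factors in edgeR, no filter, effective length, fragment length, the groups of a comparison alone, a replicate block and libraries left out. The test was checked on simulated data.

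Members and lists were chosen with earlier results of these data known. Named genes are core subunits, paralogues, and per complex and comparison the 2 members with the greatest rise or fall, of which a selection is given; Ndufaf1, Ndufaf3, Ndufaf4 and Ndufa12 stand also as short lists of called genes. 1 gene of the named rule is not reported here. Replicate numbers did not pair the libraries.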

Additional observations from a re-analysis of the deposited data

Results flagged for a closer look

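The libraries of each group were checked for one that stands apart, for 14 genes in 112 groups of 4, and 7 groups had such a library, where chance gives about 1 in 20. Mutant IFNg library 4 was low for 3 of them: Ndufa4 at 237.3 CPM (the others 305.1 to 315.5), Ndufb4 at 32.05 and Uqcrb, a complex III subunit, at 126.8. Its structural RNA share was 15.4%, the lowest of its group, and the part of this share in those values was not tested. Ndufb4 in wild-type IFNg library 4 was low at 25.04 CPM. Atp5o in wild-type IFNg library 1 was low at 171.8 CPM and Ndufaf3 in mutant both-agonist library 2 at 13.69 CPM, while Cox4i1 in wild-type both-agonist library 3 was high at 440.0 CPM.

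The edgeR test of the difference between the lines in the response passed for 40 members with Pam3CSK4 and 10 with both agonists. Among the named genes the Pam3CSK4 response was higher in the mutant by a log2 difference of 0.41 for Ndufa4, 0.23 for Atp5c1, 0.42 for Ndufaf4, 0.27 for Ndufaf3, 0.96 for Ndufb4, 0.88 for Uqcrq and 0.48 for Uqcrb. For both agonists it was higher by 0.31 for Ndufaf3, 0.57 for Ndufb4 and 0.71 for Uqcrq. With the structural share as a covariate only Ndufb4 (Pam3CSK4) and Ndufaf3 (both agonists) passed among the 80 members.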

How the results depend on the processing

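Of 72 named values none changed sign under the alternatives fitted to counts, and the call was kept in 71 with DESeq2, 71 with its size factors, 72 with effective length, 72 with fragment length, 65 without the filter, 69 with the groups of a comparison alone and 51 with the structural share. Outside these called values, signs did change with the structural share: Uqcrfs1 with Pam3CSK4 went from 0.11 to -0.02 between the lines and Ndufaf4 with Pam3CSK4 in wild-type cells from -0.09 to 0.04. Without wild-type vehicle libraries 1 and 4 the call was kept in 23 of the 31 named values that use wild-type vehicle libraries. The log2 ratio of deposited TPM was added after seeing the data and has no test. As deposited it turned the sign of 32 of the 72 values and moved 28. Relative to the median of all genes it turned 0 and moved 25. A moved value kept its sign but differed by at least the SE times the square root of 2. The totals called that moved by over 1.5 times did so mainly with the structural share as a covariate: mutant against wild-type 21 with IFNg, 27 with Pam3CSK4 and 18 with both agonists (from 45, 61 and 53), treatment in wild-type cells 4, 0 and 4 in the same order (from 49, 38 and 48), IFNg in mutant cells 5 (from 18), and the response differences 1 for Pam3CSK4 and 1 for both agonists (from 40 and 10). Without wild-type vehicle libraries 1 and 4, mutant against wild-type with vehicle gave 46 (from 29), treatment in wild-type cells 15, 3 and 18, and the response differences 18 and 2. With the groups of a comparison alone, Pam3CSK4 in mutant cells gave 11 (from 4) and the both-agonist difference 4, which was 3 without the filter. The IFNg difference gave 1 with fragment length and 1 with DESeq2 (from 0). The cause of these changes was not tested.

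Leaving out 1 library gave 25 to 37, 34 to 51, 55 to 61 and 44 to 55 for mutant against wild-type with vehicle, IFNg, Pam3CSK4 and both agonists. It gave 35 to 56, 22 to 50 and 38 to 51 for the treatments in wild-type cells, 8 to 20, 3 to 6 and 10 to 17 in mutant cells, and 0 to 3, 33 to 49 and 2 to 23 for the response differences. In no comparison did the deviations of all 4 same-numbered pairs of libraries correlate by over 0.1. With the replicate block the totals were 28, 46, 62 and 53 for the genotype comparisons, 47, 39 and 47 in wild-type cells, 16, 5 and 12 in mutant cells, and 0, 40 and 10 for the differences. The block changed 1 named call, Uqcrq in the both-agonist difference (log2 difference 0.69, edgeR adjusted p 0.052). TPM in place of CPM per kb gave the same isoform shares to within their SD.

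The 32 values that turned on TPM as deposited were, between the lines with IFNg, Pam3CSK4 and both agonists, -0.062, -0.379 and -0.263 for Atp5c1, -0.092, -0.572 and -0.341 for Atp5o, -0.153, -0.552 and -0.36 for Cox7a2l, and -0.093, -0.147 and -0.16 for Uqcrb. With IFNg and Pam3CSK4 they were -0.162 and -0.629 for Cox5a, and with Pam3CSK4 and both agonists -0.433 and -0.462 for Ndufaf4 and -0.722 and -0.451 for Ndufaf3. In wild-type cells with IFNg, Pam3CSK4 and both agonists they were 0.287, 0.512 and 0.328 for Cox7a2l and 0.155, 0.048 and 0.128 for Ndufb4, with IFNg 0.404 for Ndufaf3, and with Pam3CSK4 0.083 for Uqcrq. In mutant cells with IFNg Cox7a2l was at 0.004. The response differences were -0.378 for Ndufaf4, -0.531 for Ndufaf3 and -0.13 for Uqcrq with Pam3CSK4, and -0.261 for Ndufaf3 and -0.043 for Ndufb4 with both agonists.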

Other observations

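Of the 3 X-linked subunits outside the rule none was called between the lines with vehicle, 2 were higher in the mutant with IFNg, and 3 with Pam3CSK4 and with both agonists. With the structural share as a covariate 0 were higher with vehicle, IFNg and both agonists and 1 with Pam3CSK4, and 1 was lower with IFNg.

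Of 78 genes of the mitochondrial ribosome, 12 were higher and 18 lower in the mutant with vehicle (all genes 24.4 and 29.3%) and 42 and 15 with Pam3CSK4 (32.1 and 33.5%). With the covariate the counts were 13 and 23, and 16 and 17. In mutant cells 14 of them rose and 0 fell with Pam3CSK4 (11.5 and 12.8%; 17 and 0 with the covariate), and 32 rose and 3 fell with both agonists (23.7 and 20.1%; 42 and 2). In wild-type cells 2 rose and 26 fell with Pam3CSK4 (10.4 and 11.7%), and with the covariate 0 did either.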
